A study of Mus musculus with 6 samples.

Results

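The genes described here make cholesterol and fatty acids or control that synthesis. They are 34 genes listed by symbol, matched through their Ensembl identifiers to the GENCODE M21 annotation of GRCm38, among 55573 genes counted. All 34 were found, and 31 passed the count filter and were tested. The list holds 16 enzymes of sterol synthesis, 7 up to farnesyl diphosphate and 9 from squalene onward. It also holds 13 fatty acid enzymes (4 of synthesis, 5 desaturases, 4 elongases). The other 5 genes encode the SREBP transcription factors or the proteins that escort or retain them. RNA was sequenced from Tregs (regulatory T cells, which hold other immune cells in check), sorted by flow cytometry from spleens of bone marrow chimeras. Chimeras are hosts whose blood cells derive from transplanted marrow, and these were bi-parental per the labels. Each genotype has 3 libraries, wild type and Nfkb2-/-; Nfkb2 encodes p100, an NF-kB precursor that is processed to p52. All cells rested in warm culture medium after sorting and received no treatment. Donor age and sex, and the cells the hosts kept, are not given in the sources used here.

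SREBP proteins are made as precursors in the membrane of the endoplasmic reticulum, bound to the escort protein SCAP. When membrane sterol is scarce, SCAP carries them to the Golgi apparatus, where proteases free the part that enters the nucleus and switches on the synthesis genes. INSIG proteins hold SCAP back when sterol is plentiful, and Insig1 is itself a target gene. T cells raise this programme when they are activated and need membrane to divide.

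Library totals ran from 12005273 to 17278521 counts. Expression is reported as CPM, which are counts scaled to a common library size with the edgeR TMM factors. Nfkb2 itself was at 268, 324 and 271 CPM in Nfkb2-/- replicates 1 to 3 and at 558, 545 and 556 CPM in wild-type replicates 1 to 3, lower in every knockout library but not absent (log2 fold change -0.94, SE 0.134, edgeR quasi-likelihood adjusted p = 0.0203). Wild-type replicate 1 stood apart: across genes, which are not independent replicates, its log2 CPM had r of 0.941 to 0.955 with any other library, against 0.968 to 0.991 for all other pairs. The female-specific transcript Xist was at 841, 883 and 592 CPM in Nfkb2-/- replicates 1 to 3 and at 1.94 to 16.5 CPM in wild type. In the same Nfkb2-/- libraries 4 Y-linked genes summed to 40.0, 138 and 275 CPM, against 465 to 498 CPM in wild type. Each Nfkb2-/- library thus held both Xist and Y-linked RNA, in unlike proportions, and the source of this was not tested. Sex and genotype cannot be told apart in any comparison here. Defining Treg genes were present in every library (Foxp3 at 407 to 622 CPM, Ctla4 at 798 to 2394 CPM). The summed level of 10 B cell markers was 30.6, 41.3 and 55.0 CPM in Nfkb2-/- libraries, against 83.9, 274 and 198 CPM in wild type.

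Of the 31 genes tested, 1 fell in Nfkb2-/- Tregs and 0 rose (edgeR quasi-likelihood test, p adjusted by Benjamini-Hochberg over all 13347 genes tested, threshold 0.05). Over all genes, 0.405% fell and 1.01% rose, 1.42% in all. The gene that fell was Scd1, a fatty acid desaturase. At an unadjusted p under 0.05, 6 of the 31 were lower and 0 higher, against 6.35% and 7.25% of all genes. The libraries of the genotypes did not overlap for 7 genes that were lower in Nfkb2-/- and for 1 that was higher, against 9.9% and 10.7% of all genes tested. The median log2 fold change was -0.26 over the 16 sterol enzymes, 0.06 over the 10 tested fatty acid enzymes and -0.03 over all genes. Negative values were seen in 14 of the 16 sterol enzymes, in 4 of the 10 fatty acid enzymes and in 55.0% of all genes.

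**Figure D1:**
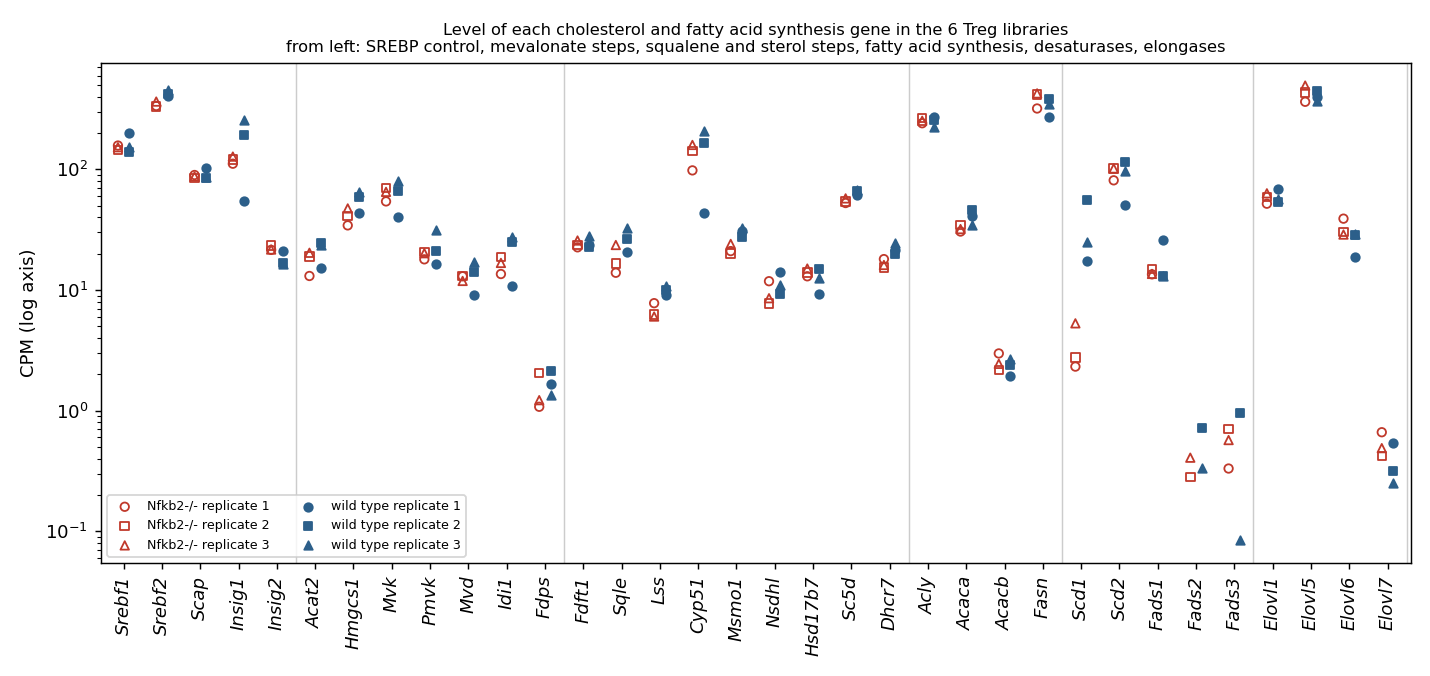
CPM of each of the 34 genes in every library, on a log axis; open red symbols are Nfkb2-/- libraries, filled blue symbols wild-type libraries, and shapes mark the replicate number. Values of 0 (Fads2 in replicate 1 of both genotypes, Fads3 in wild-type replicate 1) cannot be drawn, and Scd1 is the gene whose genotypes stand farthest apart.

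Promoters of Hmgcs1 and Insig1, textbook SREBP targets, are shown, Hmgcs1 for its match to the sterol regulatory element and Insig1 for its spread among wild-type libraries. RefSeq windows from 250 bases before to 50 after a start (GRCm38.p6) matched 28 of the 34 genes, in 37 windows. The motifs searched on both strands and given here were the sterol regulatory element TCACNCCAC, the NF-Y box CCAAT and the Sp1 box GGGCGG, none of which contains another. Only bases before the earlier of the RefSeq and GENCODE starts are printed, 5′ to 3′ on the plus strand, with TCACNCCAC and CCAAT matches (ATTGG on the other strand) in capitals.
Hmgcs1, chr13:119690101-119690350: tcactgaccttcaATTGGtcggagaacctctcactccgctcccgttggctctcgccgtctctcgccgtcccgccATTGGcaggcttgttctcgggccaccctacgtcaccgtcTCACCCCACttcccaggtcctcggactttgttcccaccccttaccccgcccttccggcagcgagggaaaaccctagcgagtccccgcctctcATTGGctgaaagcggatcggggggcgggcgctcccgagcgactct
Insig1, chr5:28071162-28071362: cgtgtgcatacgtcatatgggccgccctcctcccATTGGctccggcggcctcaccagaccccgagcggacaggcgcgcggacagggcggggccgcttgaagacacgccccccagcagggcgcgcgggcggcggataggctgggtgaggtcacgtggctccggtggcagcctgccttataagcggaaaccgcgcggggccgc
The Hmgcs1 window held the match TCACCCCAC, beginning at position -137 from the RefSeq start, and it was the single member with a match to TCACNCCAC. That motif was present in 1.24% of all 32851 windows. CCAAT was present in 22 of the 28 matched genes, or 62.2% of their windows against 37.4% of all windows, and in 12 of the 13 matched sterol enzymes against 6 of the 10 matched fatty acid genes. GGGCGG was also present in 22 genes, or 73.0% of member windows against 35.7% of all. These matches describe letters in the windows and not binding.

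Among the genes that encode or control SREBP, Srebf2 was lower in every Nfkb2-/- library and Insig1 varied most. Srebf2, which encodes the SREBP that drives mainly sterol genes, was at 336, 332 and 365 CPM in Nfkb2-/- and at 405, 420 and 451 CPM in wild type. The genotypes did not overlap, but the difference did not pass the threshold (log2 fold change -0.31, SE 0.124, edgeR adjusted p = 0.337). Insig2, a retention factor like Insig1, was at 21.5, 23.3 and 21.7 CPM in Nfkb2-/- and at 21.2, 16.9 and 16.3 CPM in wild type. It was higher in each knockout library, by a small margin over wild-type replicate 1 (log2 fold change 0.29, SE 0.162, edgeR adjusted p = 0.517).

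Insig1 was at 111, 120 and 128 CPM in Nfkb2-/- and at 54.3, 193 and 256 CPM in wild type. The knockout libraries lay close together between a low wild-type replicate 1 and 2 high wild-type libraries, so that the log2 fold change of -0.48 came with an SE of 0.462 (edgeR adjusted p = 0.729). Srebf1, which encodes the SREBP forms of fatty acid and sterol genes, and Scap, the escort gene, overlapped between genotypes, with log2 fold changes of -0.12 (SE 0.152) and -0.07 (SE 0.120). Counts without strand cannot separate opposite-strand genes: exons of Srebf1 share 1.93% of their bases with Rai1, and those of Scap 13.2% with a transcript that had 52 counts over all libraries.

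The enzymes up to farnesyl diphosphate gave 6 negative log2 fold changes of 7, against 55.0% of all genes, and none was called. Hmgcs1, which joins acetyl and acetoacetyl units at the head of the mevalonate pathway, was at 34.3, 41.0 and 47.5 CPM in Nfkb2-/- and at 43.4, 59.4 and 65.1 CPM in wild type. The first wild-type library lay inside the knockout range and the other wild-type libraries above it (log2 fold change -0.45, SE 0.193, edgeR adjusted p = 0.365). An opposite-strand transcript with 14 counts over all libraries shares 12.1% of its exon bases. Acat2, a thiolase that supplies the acetoacetyl unit, was at 13.1, 18.9 and 20.4 CPM against 15.3, 24.5 and 23.7 CPM, again with wild-type replicate 1 inside the knockout range (log2 fold change -0.27, SE 0.247, edgeR adjusted p = 0.710).

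Idi1, the isomerase of the 5-carbon isoprene units, was at 13.6, 18.8 and 16.8 CPM in Nfkb2-/- and at 10.9, 25.1 and 27.6 CPM in wild type. Its lowest library was wild-type replicate 1 and its highest were the other wild-type libraries, which gave a log2 fold change of -0.37 (SE 0.335). The kinase genes Mvk and Pmvk and the decarboxylase gene Mvd, which act in turn on mevalonate, overlapped between genotypes, with log2 fold changes of 0.03, -0.22 and -0.08. In all 3 of these genes wild-type replicate 1 was the lowest library of the 6. Fdps, the farnesyl diphosphate synthase gene, had only 57 counts over the Nfkb2-/- libraries and 74 over wild type. Of its exon bases 26.7% are shared with the same-strand gene Gm43738, which had 0 counts, and the sources used here do not say how reads in shared exons were counted, so its level is uncertain.

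Of the 9 enzymes from squalene onward 8 had a negative log2 fold change, against 55.0% of all genes. Of these 8, 4 were lower in Nfkb2-/- without overlap between genotypes, as were 9.9% of all genes tested. Msmo1, an oxidase that acts on the methyl groups at carbon 4 of the sterol ring, was at 21.0, 20.0 and 24.1 CPM in Nfkb2-/- and at 30.7, 27.8 and 32.7 CPM in wild type. Every knockout library was below every wild-type library, wild-type replicate 1 included (log2 fold change -0.49, SE 0.148, edgeR adjusted p = 0.186). Lss, which folds squalene epoxide into the sterol ring, was at 7.78, 6.26 and 6.03 CPM against 9.01, 9.97 and 10.8 CPM, also without overlap (log2 fold change -0.57, SE 0.202, edgeR adjusted p = 0.267). Dhcr7 and Sc5d, which act at the end of the pathway, did not overlap either: Dhcr7 was at 15.3 to 18.0 CPM against 19.7 to 24.6 CPM, and Sc5d at 52.6 to 57.5 CPM against 61.8 to 67.5 CPM. Their log2 fold changes were -0.41 (SE 0.160) and -0.25 (SE 0.114), neither past the threshold.

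Sqle, the squalene epoxidase gene and a rate-limiting step, was at 13.9, 16.6 and 23.6 CPM in Nfkb2-/- and at 20.7, 26.5 and 32.8 CPM in wild type. Only Nfkb2-/- replicate 3 reached into the wild-type range, above wild-type replicate 1 (log2 fold change -0.56, SE 0.250, edgeR adjusted p = 0.382). Cyp51, which removes a methyl group from lanosterol, was at 98.1, 141 and 160 CPM in Nfkb2-/- and at 43.3, 165 and 210 CPM in wild type. Replicate 1 of the wild type had 23.1% of the mean of the other wild-type libraries, and the log2 fold change of -0.06 had an SE of 0.490. Akap9, whose exons cover 3.76% of the Cyp51 exon bases on the other strand, was at 87.0 to 112 CPM in every library. Fdft1, the squalene synthase gene, Nsdhl, a demethylation enzyme on the X chromosome, and Hsd17b7, a sterol ketone reductase, overlapped between genotypes (log2 fold changes -0.05, -0.30 and 0.20). Fdft1 shares 18.3% of its exon bases with Ctsb on the other strand.

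**Figure D2:**
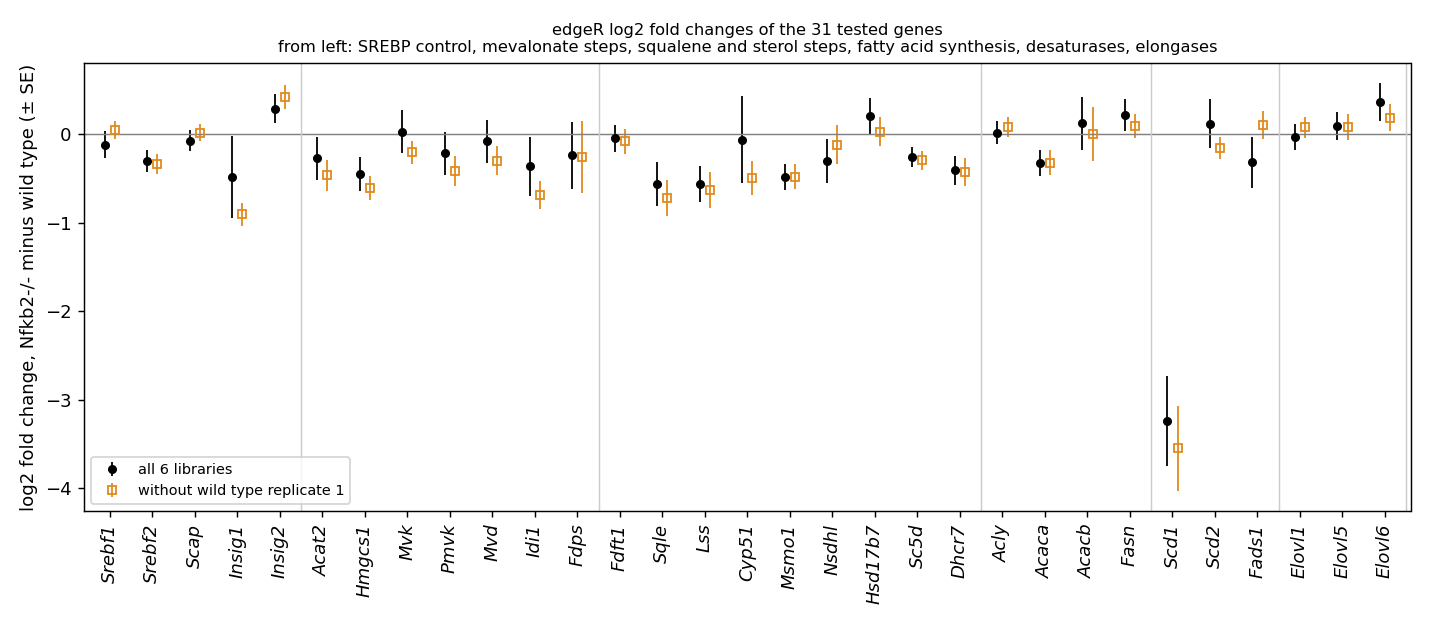
Log2 fold changes (Nfkb2-/- minus wild type, edgeR) of the 31 tested genes with their SE, from all 6 libraries (black circles) and without wild-type replicate 1 (orange squares). Scd1 is at -3.24 and -3.55, while all other genes lie between -0.57 and 0.36 with all libraries, and Insig1 and Idi1 move to -0.91 and -0.68 without that library.

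The sterol enzymes were highest in wild-type replicates 2 and 3. Their median deviation from the mean of the 6 libraries was -0.20, -0.03 and -0.05 on the log2 CPM scale in the Nfkb2-/- libraries, against -0.09, 0.17 and 0.38 in wild-type replicates 1, 2 and 3. Between libraries of the same number, a pairing that the labels do not state, it was lower in Nfkb2-/- in 3 of 3 pairs. The share of all genes with that pattern was not computed. Among sterol enzymes whose genotypes overlap, Hmgcs1, Sqle, Acat2, Nsdhl and Fdps were also lower in 3 of 3. Others went the other way in a pair: Cyp51, Idi1, Mvk, Pmvk, Mvd and Hsd17b7 were higher in Nfkb2-/- for number 1, and Fdft1 for number 2. The same median over all genes stayed between -0.0019 and 0.016, and over the fatty acid enzymes it was -0.16, 0.04 and 0.02 in Nfkb2-/- and 0.03, 0.06 and -0.05 in wild type. Wild-type replicate 1 was the lowest wild-type library for 11 of the 16 sterol enzymes, against 42.1% of all genes. Nfkb2-/- replicate 1 was likewise the lowest of its genotype for 11 of them, against 40.2% of all genes, and replicate 1 was lowest in both genotypes for 9, against 22.9%. A low Nfkb2-/- replicate 1 was not particular to sterol enzymes, as it was lowest for 8 of the 10 tested fatty acid enzymes. Of those 10, wild-type replicate 1 was lowest for 5, and replicate 1 of both genotypes for 3.

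Without wild-type replicate 1, 5 of the 31 genes fell and 0 rose, where 4.44% of all genes fell and 4.6% rose. In that comparison of 3 libraries with 2, Insig1 had a log2 fold change of -0.91 (edgeR adjusted p = 0.000865), Idi1 of -0.68 (adjusted p = 0.0166), Hmgcs1 of -0.61 (adjusted p = 0.0147) and Sqle of -0.72 (adjusted p = 0.0488), and Scd1 also fell. The sterol median was then -0.42, with 15 of 16 values negative, while that of the fatty acid enzymes was 0.08. Without wild-type replicate 3 the sterol median was -0.21 with 10 of 16 negative, and with the Y-linked sum in the model it was -0.078, again with 10 of 16 negative. The Y-linked sum was lower in every Nfkb2-/- library, so that fit cannot tell sex from genotype. Of the alternatives run, Insig1, Idi1, Hmgcs1 and Sqle passed the threshold only in the one without wild-type replicate 1. Wild-type replicates 2 and 3 had 274 and 198 CPM of B cell markers against 83.9 CPM in wild-type replicate 1, and the part of these cells in the sterol values was not tested.

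**Figure D3:**
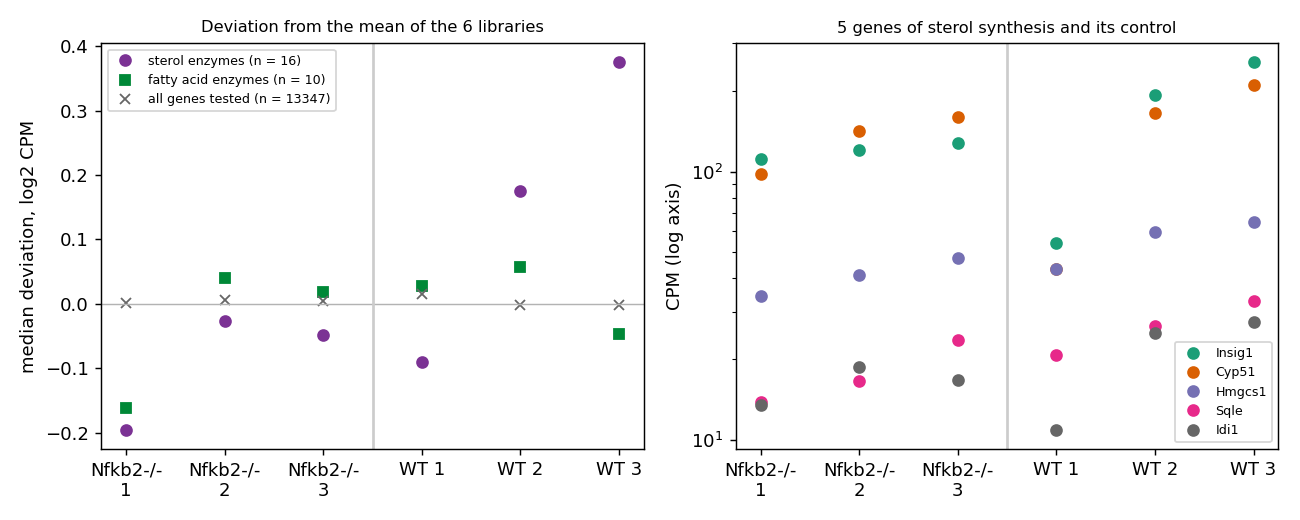
Left, median deviation of sterol enzymes, fatty acid enzymes and all tested genes from their mean over the 6 libraries (log2 CPM) in each library; right, CPM of Insig1, Cyp51, Hmgcs1, Sqle and Idi1 on a log axis. Wild-type replicates 2 and 3 are highest for the sterol enzymes, at 0.17 and 0.38, and wild-type replicate 1 lies among the Nfkb2-/- libraries, at -0.09; there the Cyp51 point (43.3 CPM) is hidden behind that of Hmgcs1 (43.4 CPM).

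No gene of fatty acid synthesis itself was called. Fasn, the synthase that builds palmitate, was at 320, 418 and 427 CPM in Nfkb2-/- and at 273, 380 and 347 CPM in wild type, ranges that overlap (log2 fold change 0.22, SE 0.178, edgeR adjusted p = 0.673). Acaca, the carboxylase that makes malonyl units for it, was at 30.5, 34.6 and 32.0 CPM against 41.0, 46.2 and 34.6 CPM. Its genotypes just failed to overlap, wild-type replicate 3 standing barely above Nfkb2-/- replicate 2 (log2 fold change -0.33, SE 0.150, edgeR adjusted p = 0.397). Acly, which makes cytosolic acetyl units from citrate, had a log2 fold change of 0.02 (SE 0.128), with 241 to 267 CPM in Nfkb2-/- and 223 to 273 CPM in wild type. Acacb, the carboxylase linked to fatty acid oxidation, was at 2.18 to 2.98 CPM in Nfkb2-/- and 1.94 to 2.69 CPM in wild type, with 97 and 98 counts over the 3 libraries of each.

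Scd1 introduces the double bond that turns saturated into monounsaturated fatty acids, and Scd2 encodes a close relative of the same function. Scd1 was at 2.32, 2.74 and 5.29 CPM in Nfkb2-/- and at 17.4, 55.7 and 24.8 CPM in wild type, from 28, 39 and 65 counts against 323, 704 and 295 counts. Every knockout library was below every wild-type library, and the wild-type libraries differed among themselves. The mean fell from 32.6 ± 20.3 CPM to 3.45 ± 1.61 CPM (SD, n = 3 each), 10.6% of wild type (log2 fold change -3.24, SE 0.510, edgeR adjusted p = 0.0286). The call was lost without Nfkb2-/- replicate 1, 2 or 3 (edgeR adjusted p = 0.139, 0.181 and 0.110) and without wild-type replicate 3 (adjusted p = 0.0633), and kept without wild-type replicates 1 and 2 (adjusted p = 0.0123 and 0.0491), with log2 fold changes from -3.68 to -2.62. It was also lost with no count filter (edgeR adjusted p = 0.126), in limma-voom (adjusted p = 0.0599) and when the Y-linked sum was added to the model (log2 fold change -2.41, edgeR adjusted p = 0.611). That sum was at most 275 CPM in Nfkb2-/- and at least 465 CPM in wild type, so it largely follows genotype. With it the SE of Scd1 was 0.810 in place of 0.510, and the lost call cannot tell sex from genotype. In bulk samples fewer cells of a type and less RNA per cell cannot be told apart.

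The order of the 6 libraries by Scd1 was their order by Cd79a, a signalling chain of the B cell receptor, a marker picked after its values were seen. Wild-type replicate 2, the highest in Scd1, was also the highest in the B cell sum, and Nfkb2-/- replicate 3 was the highest of its genotype in both. Cd79a was at 3.48, 4.93 and 7.57 CPM in Nfkb2-/- and at 20.1, 48.5 and 35.6 CPM in wild type, a log2 fold change of -2.70 (edgeR adjusted p = 0.023). Against the sum of all 10 markers Scd1 amounted to 7.57%, 6.64% and 9.63% in Nfkb2-/- and to 20.8%, 20.3% and 12.5% in wild type. Of the 10 markers 2 fell and 0 rose, against 0.405% and 1.01% of all genes. Without overlap 9 were lower, the exception being Cd22, against 9.9% of all genes. None of the 10 was at 0 in any library. The part of B cells in the Scd1 difference was not tested.

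**Figure D4:**
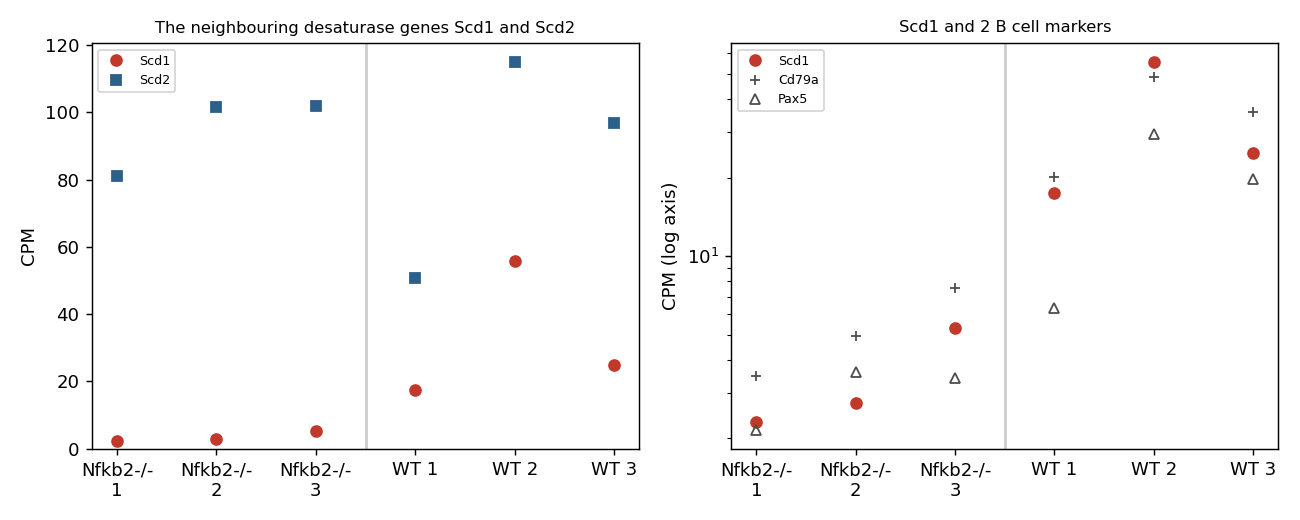
Left, CPM of Scd1 and Scd2 in each library on a linear axis from 0; right, CPM of Scd1 with the B cell markers Cd79a and Pax5 on a log axis. Scd1 is at most 5.29 CPM in Nfkb2-/- and at least 17.4 CPM in wild type, and follows the order of Cd79a across the 6 libraries, while Scd2 overlaps between genotypes.

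Scd2 was at 81.2, 102 and 102 CPM in Nfkb2-/- and at 50.8, 115 and 96.8 CPM in wild type. The knockout range lay inside the wild-type range (log2 fold change 0.12, SE 0.276, edgeR adjusted p = 0.900). Per kilobase of exon Scd2 was the more abundant of the pair in both genotypes, at 17.4 against 0.706 CPM per kilobase in Nfkb2-/- and 16.0 against 6.67 in wild type. Both lie on chromosome 19 of GRCm38, Scd1 at 44394455 to 44407879 and Scd2 at 44293674 to 44306864, 1.91 and 2.01 Mb from Nfkb2. Of 138 tested genes within 10 Mb of Nfkb2, 3 were called, or 2.17%, against 1.42% of all genes, and Scd1 is among those 3. The part of this position in the Scd1 difference was not tested.

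The other desaturases also lie on chromosome 19, 36.1 to 36.3 Mb from Nfkb2. Fads1, which makes double bonds in polyunsaturated fatty acids, was at 13.5, 14.9 and 13.6 CPM in Nfkb2-/- and at 26.0, 13.0 and 13.1 CPM in wild type. Only wild-type replicate 1 was above the rest, and without it the log2 fold change was 0.10 in place of -0.32. Its relatives Fads2 and Fads3 did not pass the count filter, with 9 and 21 counts summed over Nfkb2-/- and 13 counts each summed over wild type.

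The elongases, which lengthen fatty acids by adding carbon units, were not called. Elovl6, which acts on palmitate, was at 39.1, 30.2 and 28.8 CPM in Nfkb2-/- and at 18.9, 28.6 and 28.9 CPM in wild type. Only Nfkb2-/- replicate 3 lay below a wild-type library, replicate 3 (log2 fold change 0.36, SE 0.212, edgeR adjusted p = 0.533). Elovl5, which acts on polyunsaturated fatty acids, was at 364, 433 and 496 CPM against 397, 445 and 369 CPM (log2 fold change 0.09, SE 0.158, edgeR adjusted p = 0.862). Elovl1, which makes very long chains, had a log2 fold change of -0.03 (SE 0.144). Elovl7 did not pass the filter, with 20 counts in Nfkb2-/- and 17 in wild type.

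Levels of different genes are set side by side as CPM per kilobase of exon. Elovl5 was the most abundant of the 34 genes in both genotypes, at 122 CPM per kilobase in Nfkb2-/- and 114 in wild type. Srebf2, Insig1 and Acly followed in wild type at 59.2, 54.2 and 47.5 CPM per kilobase, and in Nfkb2-/- Acly and Srebf2 were nearly level at 48.1 and 47.9. Among sterol enzymes Cyp51, Mvk and Sc5d were highest, at 31.6, 23.2 and 13.4 CPM per kilobase in wild type, Pmvk was close behind at 13.3, and Lss was at 0.919. Levels under 1 CPM per kilobase were also seen for Fdps, Acacb, Fads2, Fads3 and Elovl7, and for Scd1 in Nfkb2-/-. Scd1 ranked 17 of 34 in wild type and 28 of 34 in Nfkb2-/-.

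Genes around this pathway were taken from 5 further lists. No gene in them was called in the edgeR fit reported here, with its count filter, all libraries and no block. Of 8 further sterol and isoprenoid enzymes, 6 had a negative log2 fold change (median -0.22), and 4 did not overlap and were lower, against 9.9% of all genes. Tm7sf2, a sterol reductase, was at 4.05, 3.87 and 3.91 CPM in Nfkb2-/- and at 6.53, 6.49 and 7.73 CPM in wild type (log2 fold change -0.81, edgeR adjusted p = 0.138). Of 8 genes of SREBP cleavage and turnover 5 were negative (median -0.07, or 0.059 without wild-type replicate 1), with Mbtps1, the protease that makes the first cut, at -0.15 and Paqr3, which tethers SCAP to the Golgi apparatus, at 0.50. Of 13 tested genes of the liver X receptors and of sterol transport and storage 11 were negative (median -0.13), with Rxrb, a partner of these receptors, at -0.39 and Mylip, a ubiquitin ligase of lipoprotein receptors, at -0.33. Without wild-type replicate 1, Tm7sf2, Rxrb and the sterol carrier gene Npc2 fell (edgeR adjusted p = 0.0368, 0.0232 and 0.0119), Npc2 being named after its values were seen.

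Of 12 further fatty acid genes tested 5 were negative (median 0.07). Hacd3, a dehydratase of fatty acid elongation, was at 447, 590 and 582 CPM in Nfkb2-/- and at 245, 357 and 342 CPM in wild type, without overlap. Its log2 fold change of 0.78 (SE 0.192) had an edgeR adjusted p of 0.112, or 0.0405 with the replicate number as a block, a fit in which 1.47% of all genes rose and 0.697% fell. Acsl3, which activates fatty acids for lipid droplets, was at 18.2, 24.4 and 25.7 CPM against 29.5, 40.7 and 44.4 CPM, also without overlap. Its log2 fold change of -0.75 (SE 0.207) had an edgeR adjusted p of 0.152, or 0.0483 in the blocked fit. Both genes were also called without wild-type replicate 1. Of 11 tested genes of fatty acid oxidation 9 were negative (median -0.08), with Acadm, a dehydrogenase of medium chains, at -0.62 (edgeR adjusted p = 0.144) and Hadha, a subunit of the trifunctional protein, at 0.15.

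Markers of other cells were low beside those of Tregs. The plasma cell sum, mostly Jchain in every library, was 11.1 to 18.4 CPM in Nfkb2-/- libraries, against 15.2 to 88.8 CPM in wild type. Macrophage and monocyte markers reached at most 29.7 and 42.0 CPM in the respective genotypes, erythroid markers 37.9 and 56.5 CPM, and neutrophil markers 16.9 and 34.4 CPM. Natural killer and CD8 T cell markers lay at 26.2 to 36.7 CPM against 18.2 to 31.6 CPM. The dendritic cell list lay at 88.8 to 129 CPM against 23.7 to 59.1 CPM. Nearly all of its sum in Nfkb2-/- came from Zbtb46. That gene rose, from 16.6 to 42.1 CPM in wild type to 86.8 to 118 CPM (a log2 difference of 1.87 with an edgeR adjusted p of 0.0355). Eomes, of the natural killer and CD8 T cell list, rose as well (log2 fold change 1.60). Its other tested members went the other way without being called, Cd8a at -0.95 and Cd8b1 at -0.48. Ncr1 and Klrb1c of that list did not pass the count filter. The other 5 dendritic cell genes were highest in wild-type replicate 2 or 3, with Siglech at 20.8, Itgax at 5.14, Flt3 at 3.96 and Clec9a at 1.82 CPM in replicate 2 and Xcr1 at 2.94 CPM in replicate 3. Siglech was listed at 0 in Nfkb2-/- replicate 1.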

How the data were processed

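Whole-number counts of reads per gene were deposited by the authors for each of the 6 libraries, not normalized. Tools listed in the submitters' processing notes are HISAT2, HTSeq, FastQC and DESeq2, with build GRCm38 and no versions. The kit named in the labels does not mark strand, so genes overlapping on opposite strands cannot be separated. Of 55573 gene identifiers, 55480 matched GENCODE M21, which gave symbols, positions and exon lengths. The test was the edgeR 4.0.16 quasi-likelihood test (R 4.3.3; filterByExpr, TMM, robust fit, genotype alone in the design, Benjamini-Hochberg adjustment over 13347 genes, threshold 0.05). Log2 CPM used a prior count of 2. Alternatives were RLE and upper-quartile scaling, other count filters, DESeq2 1.42.0, limma-voom (limma 3.58.1), the replicate block, the summed level of 4 Y-linked genes as a covariate, and leaving out each library. The code was tested on simulated counts.

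Both genotypes carry replicate numbers whose meaning the labels leave unstated. For numbers 1, 2 and 3 the correlation of a pair's residuals about each genotype's mean was 0.364, 0.267 and 0.111, each above 0.1. Unlike numbers gave -0.428 to 0.251, the highest for Nfkb2-/- replicate 3 with wild-type replicate 2, above the 0.111 of its own number. The values thus set replicate 1 apart but do not show a 1-to-1 pairing. A pairing by number, which the labels do not state either, was left out of the fit that gave the reported values. If the numbers do mark pairs, the reported p-values ignore them. The blocked fit is an alternative, in which 196 genes rose and 93 fell, against 135 and 54 in the reported fit. Chi-square over degrees of freedom was 5.82 to 106 over all pairs of libraries, so no library was a duplicate. The labels call the libraries biological repeats without naming animals, so p-values measure the spread between these libraries. The members, lists and tests were chosen with earlier results of these data known. Named in full were called genes and the 2 members of each role with the smallest p; from each further list the 2 with the smallest p, of which 1 is not reported here. Insig1, Idi1, Sqle, Cyp51, Dhcr7, Sc5d, Scd2 and the promoters were taken up after their values were seen. Figures used matplotlib 3.10.9 in Python 3.11.15.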

Additional observations from a re-analysis of the deposited data

How the results depend on the processing

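Scd1 kept a negative log2 fold change in every alternative run, from -3.68 to -2.41, and was the single member called lower with all libraries. The number of members called lower was 0 with no count filter, in limma-voom and after adding the Y-linked level, where Scd1 had adjusted p of 0.126, 0.0599 and 0.611. It ran from 0 to 5 when each library was left out. Members called higher numbered 0 in all of these. Over all genes, 135 rose and 54 fell; with no count filter 292 and 174, by DESeq2 428 and 252, in limma-voom 144 and 42, adding the Y-linked level 6 and 1, and without each library 6 to 628 and 1 to 606. With the replicate block 196 rose and 93 fell, Scd1 remained called at -3.15 (adjusted p = 0.0276), Hacd3 and Acsl3 were called, and no other call among the named genes changed. The sterol median was -0.078 with the Y-linked covariate and -0.42 to -0.19 without each library, and that of the fatty acid enzymes ran from -0.014 to 0.08 without each library. The Y-linked level was lower in every Nfkb2-/- library, so calls lost with it cannot tell sex from genotype.

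Values that changed sign belonged to genes that were not called. Cyp51 was at 0.18 in limma-voom, 0.17 in the blocked fit and 0.47 with the Y-linked covariate, and Mvd at 0.0028 in limma-voom. With the covariate Acat2 was at 0.21, Fdps at 0.032, Fdft1 at 0.078, Elovl1 at 0.17 and Acacb at -0.13. Leaving out a library in turn gave ranges that crossed 0 for Srebf1 (-0.22 to 0.047), Scap (-0.13 to 0.019), Mvk (-0.20 to 0.24), Pmvk (-0.41 to 0.070), Mvd (-0.30 to 0.13), Fdft1 (-0.11 to 0.047), Cyp51 (-0.50 to 0.35), Acly (-0.060 to 0.085), Acacb (-0.0098 to 0.23), Scd2 (-0.16 to 0.35), Fads1 (-0.49 to 0.10), Elovl1 (-0.10 to 0.079) and Elovl5 (-0.019 to 0.20). DESeq2 also called Tm7sf2, Hacd3, Acsl3 and Acadm, and with no count filter Hacd3 and Acsl3 were called. Without wild-type replicate 1, Tm7sf2 (adjusted p = 0.0368), Rxrb (0.0232), Acsl3 (0.00241) and Npc2 fell and Hacd3 (0.0144) rose. The cause of these changes was not tested. Depth limits Fdps, Acacb, Fads2, Fads3 and Elovl7, which had fewer than 100 counts per genotype.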
